A study of Mus musculus with 14 samples.

Results

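The expression of 7 genes that encode subunits of the GABA-A receptor was examined in the dorsal hippocampus of male C57BL6 mice aged 8 months. The genes were taken by name: the α subunit genes Gabra2, Gabra3, Gabra4 and Gabra5, the β subunit genes Gabrb1 and Gabrb2, and the δ subunit gene Gabrd. All 7 were found among the 26570 genes of the basal count table and the 25933 genes of the learning count table, and all 7 passed the filter on low counts, which left 16324 and 16820 genes. The basal experiment compared mice that were neither treated nor trained, WT (n = 3 libraries) and THY-Tau22 (n = 2). THY-Tau22 mice are heterozygous for a mutated human Tau transgene, which a Thy1.2 promoter drives in neurons. The learning experiment held 9 libraries of injected mice. WT VEH_HC mice (n = 3) received saline and stayed in the home cage, and WT VEH mice (n = 2) received saline and were trained in a spatial task, the Morris water maze. TAU VEH mice (n = 2) were trained THY-Tau22 mice that received CSP, the carbon nanosphere carrier without drug. TAU MOL mice (n = 2) were trained THY-Tau22 mice that received CSP-TTK21, the carrier coupled to an activator of the histone acetyltransferases CBP and p300. Saline and CSP were thus split by genotype, and the carrier and the genotype cannot be told apart when TAU VEH is compared with WT VEH.

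GABA-A receptors are chloride channels built from several subunits around a central pore, and they carry most fast inhibition in the brain. GABA binds at the borders between α and β subunits, and the kind of α subunit sets the pharmacology and much of the location of the receptor. Receptors with α2 or α3 are mostly synaptic, α5 is known for extrasynaptic receptors of hippocampal pyramidal cells, and α4 pairs with δ in the extrasynaptic receptors of dentate granule cells that carry a lasting, tonic inhibition. The β subunits are needed for assembly and for anchoring at the membrane.

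Libraries held from 24693713 to 52180305 counts. Thy1, whose promoter drives the transgene, reached 1805 to 2352 CPM (counts scaled to 1000000 per library) in the 6 libraries labelled as THY-Tau22 and 786 to 913 CPM in the 8 WT libraries, so by Thy1 no library went against its genotype label. Mapt, the mouse tau gene, did not separate the genotypes in the learning experiment, with 740.0 to 783.5 CPM in THY-Tau22 and 698.4 to 875.2 CPM in WT. In the basal experiment it was at 602.6 and 642.4 CPM in THY-Tau22 and at 529.9 to 592.8 CPM in WT. The 7 dentate granule cell markers and the 5 CA1 markers were counted in every library, with summed levels of at least 450.2 and 496.5 CPM. Choroid plexus transcripts set the groups apart: the 12 markers summed to 2162 to 3108 CPM in WT VEH, but to 157.2 to 410.5 in WT VEH_HC, 457.1 to 535.0 in TAU VEH and 1058 to 1166 in TAU MOL. In the basal experiment TAU replicate 2 held 1974 CPM of these markers and the other 4 libraries 590.9 to 707.0. In bulk tissue, fewer cells of a type and less RNA per cell cannot be told apart.

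The GC content of the transcripts also separated the libraries, and the GABA-A genes lie unevenly along it. The exons of Gabrb2, Gabra2, Gabra4, Gabra3, Gabrb1 and Gabra5 had a GC content of 39.1%, 41.7%, 42.2%, 43.1%, 45.5% and 47.3%, all below the median of 50.0% over the genes tested. Gabrd, with 55.7%, stood at the 79.9th percentile. Spearman's rho between the GC content of a gene and its deviation in a library from the mean of all libraries ran from 0.08 to 0.45 in the 5 WT learning libraries and from -0.62 to -0.40 in the 4 THY-Tau22 learning libraries. In the basal experiment rho was -0.60 in TAU replicate 2, against 0.48 in TAU replicate 1 and 0.07 to 0.32 in WT. Each comparison was therefore also fitted with a correction for GC content and transcript length, and its values stand beside those as counted where they move a result.

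The genes lie in 5 places of the genome (mm9). Gabra2 (71352296 to 71487088, minus strand), Gabra4 (71960973 to 72049547, minus strand) and Gabrb1 (72091171 to 72529628, plus strand) share a stretch of chromosome 5 with Gabrg1, a γ subunit gene. Gabra5 lies on chromosome 7 (64663060 to 64765379, minus strand). Gabrb2 lies on chromosome 11 (42233259 to 42446092, plus strand) beside Gabra6, and Gabra3 on chromosome X (69678020 to 69902187, minus strand) beside Gabre and Gabrq. Gabrd, on chromosome 4 (154759089 to 154772221, minus strand), had no other subunit gene within 1000000 bases. The kit did not mark the strand. The spans of Gabra3, Gabra5 and Gabrb1, introns included, overlap 5, 1 and 2 further annotated genes. Whether exons are shared was not checked, and where they are, reads cannot be assigned by strand.

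CBP is a coactivator of CREB, which binds the cAMP response element TGACGTCA and its shorter form TGACG. The start regions of the genes were read for these letters on both strands. RefSeq start regions of 300 bases (GRCm38.p6, 250 bases before the start and 50 from it) were at hand for 6 of the 7 genes, in 10 windows. TGACGTCA was in 0 of the 10 windows and in 1.79% of all 32851 windows, and TGACG, which is also part of the longer motif, was in 1 of the 10 and in 20.8% of all. The 4 sequences below are those of Gabra4 and Gabrb1, which lie on opposite strands, and of the Gabrb2 window with the TGACG match, whose letters on the minus strand are in capitals.
Gabra4, chr5:71658259-71658558, minus strand: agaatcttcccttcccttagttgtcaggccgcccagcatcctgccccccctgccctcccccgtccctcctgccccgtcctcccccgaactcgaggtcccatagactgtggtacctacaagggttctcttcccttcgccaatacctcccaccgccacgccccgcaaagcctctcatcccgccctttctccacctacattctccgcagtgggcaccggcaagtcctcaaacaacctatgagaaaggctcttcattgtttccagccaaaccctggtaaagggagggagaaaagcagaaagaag
Gabrb1, first start, chr5:71657671-71657970, plus strand: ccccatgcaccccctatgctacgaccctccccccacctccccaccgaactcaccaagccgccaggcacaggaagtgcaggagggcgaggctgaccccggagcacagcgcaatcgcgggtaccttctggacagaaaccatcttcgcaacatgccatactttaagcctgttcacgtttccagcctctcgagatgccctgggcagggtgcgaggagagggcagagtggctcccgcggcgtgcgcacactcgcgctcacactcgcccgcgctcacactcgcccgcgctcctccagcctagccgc
Gabrb1, second start, chr5:71699682-71699981, plus strand: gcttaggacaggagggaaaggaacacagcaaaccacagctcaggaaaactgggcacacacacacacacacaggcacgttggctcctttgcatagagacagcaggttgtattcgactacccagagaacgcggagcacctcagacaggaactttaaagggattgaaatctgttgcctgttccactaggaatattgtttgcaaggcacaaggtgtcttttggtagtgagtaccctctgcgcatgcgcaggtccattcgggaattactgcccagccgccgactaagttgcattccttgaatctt
Gabrb2, chr11:42420190-42420489, plus strand: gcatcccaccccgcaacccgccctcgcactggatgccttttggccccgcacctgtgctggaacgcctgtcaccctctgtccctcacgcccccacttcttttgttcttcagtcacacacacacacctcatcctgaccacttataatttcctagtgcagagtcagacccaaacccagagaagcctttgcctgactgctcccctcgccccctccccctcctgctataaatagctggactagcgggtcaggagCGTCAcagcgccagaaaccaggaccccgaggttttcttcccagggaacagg
The first Gabrb1 start lies 387 bases from that of Gabra4 on the opposite strand, on the side toward which Gabra4 is transcribed. The second lies 41624 bases from it on the other side, and there the genes point away from each other. The Gabrb2 match begins at position -1 from the start of transcription. Of other motifs searched, GGGCGG, an SP1 motif, was in 3 of the 10 windows (35.7% of all), and TATAAA was in 3 of the 10 (13.6% of all), in the Gabrb2 window at position -30 and at 1 site that a pair of overlapping Gabra3 windows share. GCGTGGGCG and GCGGGGGCG, read by EGR factors, and TGANTCA, read by AP-1, were in 0 of the 10 windows and in 0.612%, 2.91% and 7.81% of all. A match says nothing of binding in these mice.

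The levels of the subunits were first compared with each other, per length of their exons. Gabra5, the gene of the α5 subunit, was the most abundant of the 7 in all 6 groups, with a mean of 55.1 RPKM (counts scaled for depth and exon length) over the 9 learning libraries and of 74.2 RPKM over the 5 basal libraries. It stood at the 94.5th and 95.7th percentile of all genes. Over the learning libraries Gabra4 followed with 15.9 RPKM, Gabrb2 with 13.1, Gabra2 with 12.2, Gabrd with 10.1, Gabrb1 with 6.78 and Gabra3 with 6.19. The lowest of them, Gabra3, still stood at the 60.7th percentile. Over all 9 libraries the range of every gene from Gabra4 down overlapped that of the next in this order, and Gabra5 alone was clear of its neighbour. Exon length entered this order: with the longest transcript in place of all exons merged, Gabrb2 (17.0 RPKM) passed Gabra4 (15.9), and the other 5 places were kept. In the basal experiment the order was Gabra5, Gabra4 (21.2 RPKM), Gabrb2 (14.7), Gabrd (14.6), Gabra2 (11.7), Gabra3 (7.62) and Gabrb1 (6.94). The tables were scaled separately, so levels are not compared between the experiments.

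**Figure D1:**
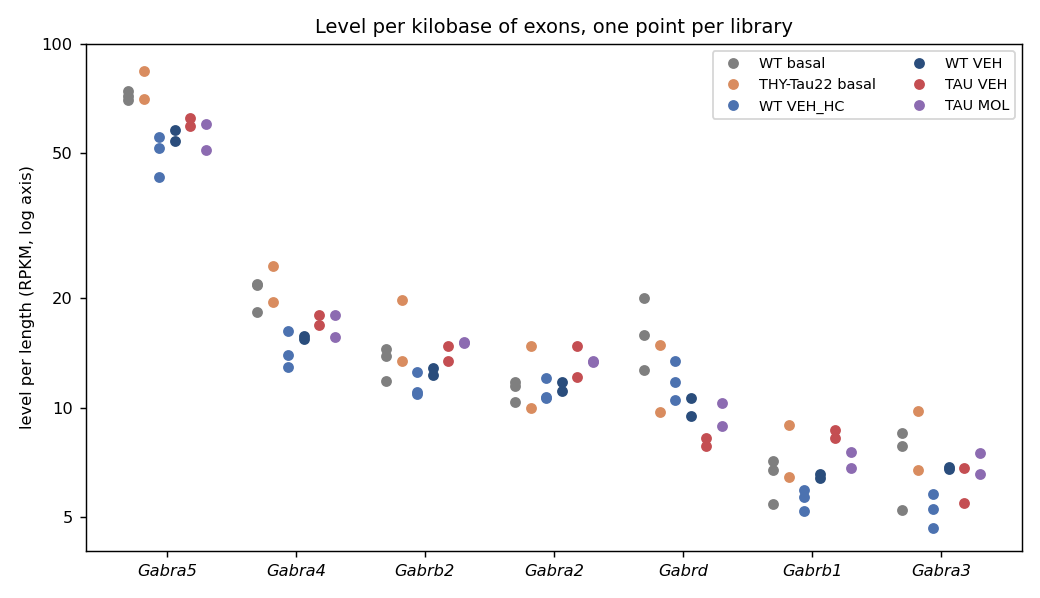
Level per length (RPKM, log axis) of the 7 GABA-A subunit genes, 1 point per library, coloured by group. Gabra5 lies above the other 6 genes in every library, and Gabrb1 and Gabra3 have the lowest means over the 9 learning libraries (6.78 and 6.19 RPKM), although in TAU VEH the mean of Gabrd (8.03 RPKM) is below that of Gabrb1 (8.48 RPKM).

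Gabra5 also made up most of the summed level of the 4 α genes. Its share per length was 61.9% ± 2.95 (SD, n = 3) in WT VEH_HC, 62.3% ± 1.61 (n = 2) in WT VEH, 62.3% ± 1.91 (n = 2) in TAU VEH and 59.8% ± 2.09 (n = 2) in TAU MOL. In the basal experiment it was 64.9% ± 2.15 (n = 3) in WT and 64.6% ± 2.07 (n = 2) in THY-Tau22. Gabra4 held from 17.4% to 18.5% as a group mean, Gabra2 from 10.1% to 14.5% and Gabra3 from 6.25% to 7.63%. Within each experiment the groups overlapped in their Gabra5 share, also those with the most distant means, TAU MOL (58.3% and 61.3%) and WT VEH (61.2% and 63.5%).

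Each comparison was then tested across all genes with edgeR's quasi-likelihood test. Calls required a Benjamini-Hochberg adjusted p below 0.05 together with a log2 fold change of over 0.2 in either direction. Of the 7 genes, 0 were called in the basal experiment, 0 after training, 1 between TAU VEH and WT VEH, 0 between TAU MOL and TAU VEH, and 0 between TAU MOL and WT VEH.

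**Figure D2:**
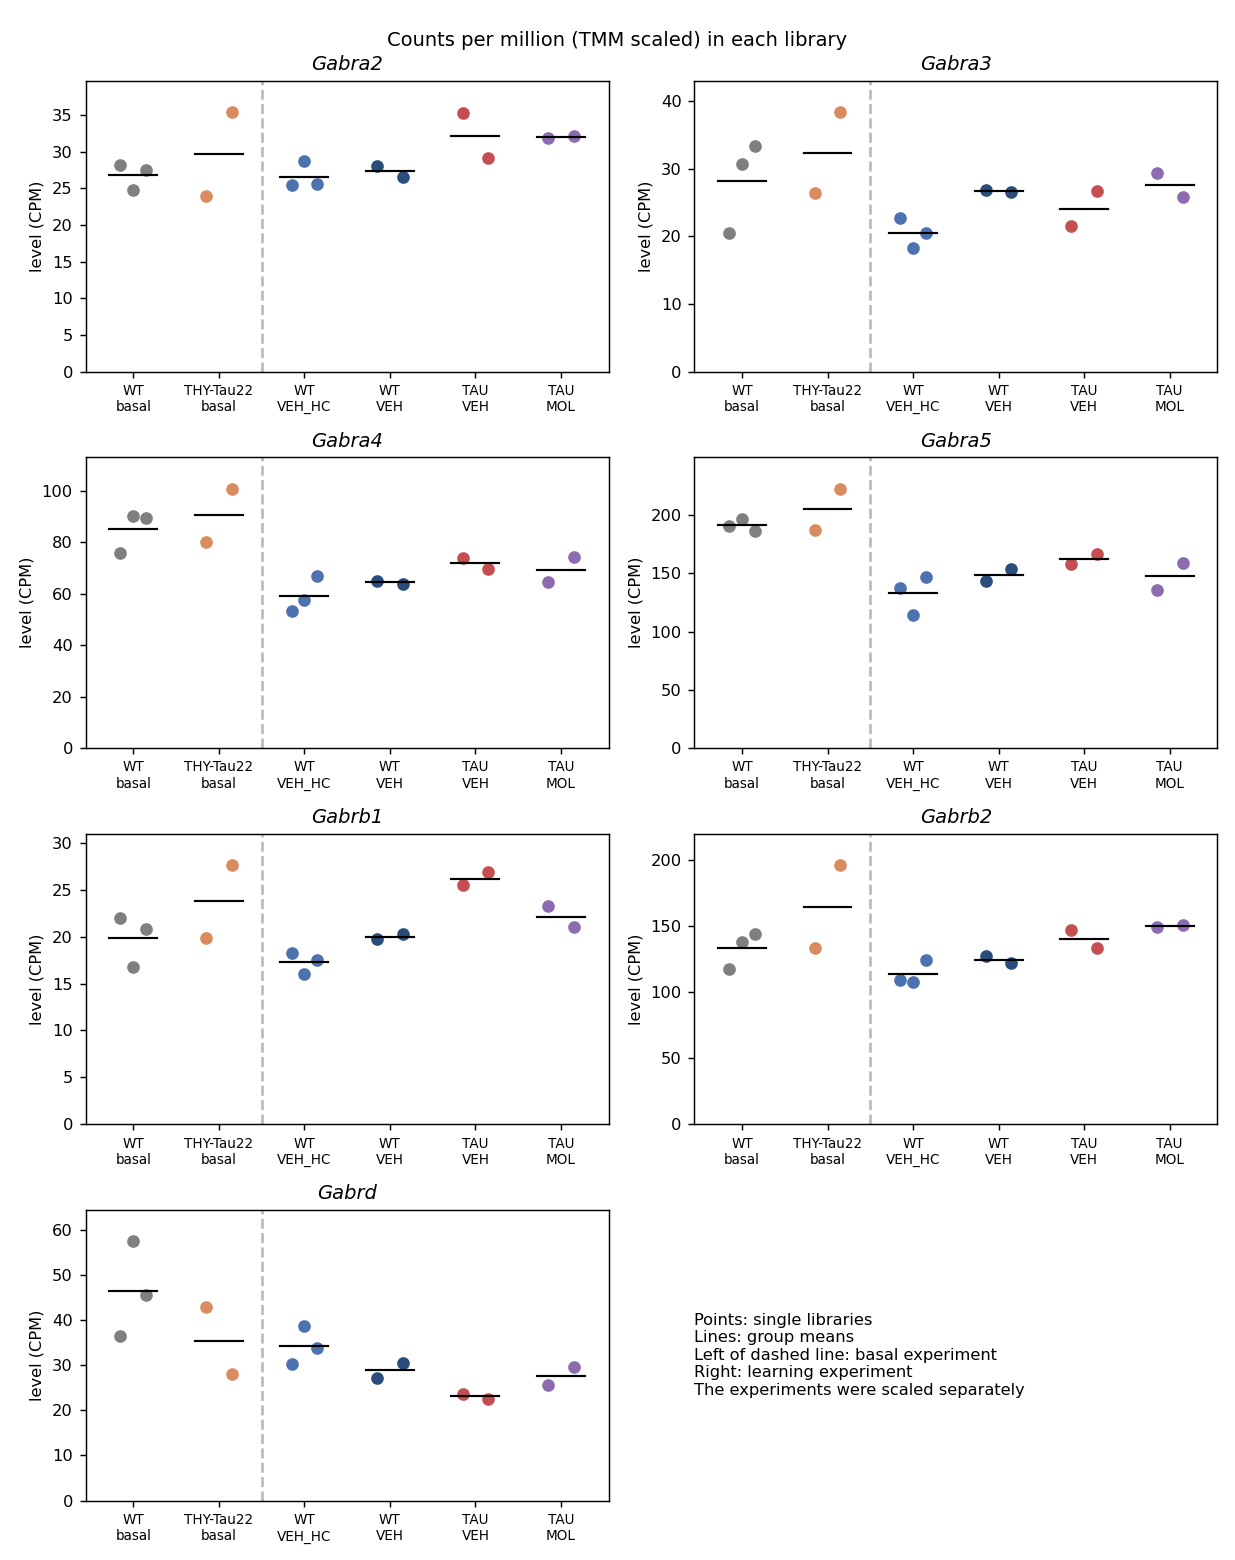
Level (CPM, scaled with TMM factors, axes from 0) of each GABA-A subunit gene in each library. Points are libraries and lines are group means, with the basal experiment left of the dashed line. The 2 TAU VEH libraries lie highest for Gabrb1 (25.5 and 26.9 CPM) and lowest for Gabrd (23.7 and 22.5 CPM) within the learning experiment.

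The basal comparison asked whether the transgene alters transcription at rest. None of the 7 GABA-A genes was called, against 0.0245% of all genes tested (4 of 16324), and DESeq2 called 0 of the 7 as well, beside 0.245% of all genes. An unadjusted p under 0.05 was reached by 0 of the 7. The libraries of the groups overlapped for all 7, whereas they did not overlap for 18.5% of all genes. Of the log2 differences, 6 were above 0 and that of Gabrd was below it, with a median of 0.15 beside -0.01 over all genes. After the GC and length correction the median was 0.08 and 5 of the 7 were above 0.

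The spread within the THY-Tau22 group was wide. Gabrd was at 42.8 and 27.98 CPM in THY-Tau22 replicates 1 and 2, and at 36.4, 57.4 and 45.4 CPM in WT replicates 1, 2 and 3. Gabrb2 was at 133.1 and 196.1 CPM in THY-Tau22 and at 117.1, 137.8 and 144.1 CPM in WT. For these genes THY-Tau22 replicate 2 lay outside the WT range and replicate 1 within it. The log2 difference was -0.39 for Gabrd (95% interval -0.87 to 0.09, adjusted p = 0.901) and 0.31 for Gabrb2 (-0.06 to 0.68, adjusted p = 0.901), which was 0.0014 without THY-Tau22 replicate 2 and 0.58 without replicate 1. Changes of the size seen in the learning experiment lie within these intervals.

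Gabra2 (23.9 and 35.4 CPM in THY-Tau22, 28.2, 24.8 and 27.5 in WT), Gabra3 (26.5 and 38.4 CPM, 20.5, 30.8 and 33.4 in WT) and Gabrb1 (19.9 and 27.7 CPM, 22.0, 16.8 and 20.8 in WT) had THY-Tau22 replicate 2 above every WT library as well. Gabra4 (80.3 and 101.0 CPM, 75.8, 90.3 and 89.6 in WT) and Gabra5 (187.0 and 223.1 CPM, 191.1, 196.9 and 186.5 in WT) did so too. THY-Tau22 replicate 2 is the library with the GC trend of -0.60 and the high choroid plexus level given above, and it also held 78 counts of Gabra6, a subunit gene typical of cerebellar granule cells, against 0 to 2 in the other 4 basal libraries. Without that library the differences of Gabra2, Gabra3, Gabra4 and Gabra5 turned to -0.16, -0.09, -0.09 and -0.03, and those of Gabrb1, Gabrb2 and Gabrd shrank to 0.0046, 0.0014 and -0.12. Without THY-Tau22 replicate 1 all 7 grew in size, to 0.43, 0.47, 0.27, 0.24, 0.50, 0.58 and -0.71 for Gabra2, Gabra3, Gabra4, Gabra5, Gabrb1, Gabrb2 and Gabrd, none of them called (lowest adjusted p = 0.0949, for Gabrb2). With the GC and length correction and all 5 libraries, the differences were 0.05 for Gabra2, 0.11 for Gabra3, -0.0059 for Gabra4, 0.08 for Gabra5, 0.21 for Gabrb1, 0.12 for Gabrb2 and -0.35 for Gabrd. The part of choroid plexus and other tissue in these values was not tested beyond leaving out that library.

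The second comparison, WT VEH against WT VEH_HC, asked what spatial training changes in healthy mice. It called 8.4% of all genes (1413 of 16820) and 0 of the 7 GABA-A genes, of which 3 had an unadjusted p under 0.05, beside 27.8% of all genes. DESeq2 called 1 of the 7, Gabra3, beside 11.0% of all genes. The groups did not overlap for 2 of the 7, Gabra3 and Gabrb1, and for 43.8% of all genes.

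Gabra3, the gene of the α3 subunit, was at 27.0 and 26.5 CPM in WT VEH and at 22.8, 18.3 and 20.6 CPM in WT VEH_HC. Both trained libraries were higher than the 3 home cage libraries. The log2 difference of 0.38 (SE 0.11, interval 0.14 to 0.62) had an adjusted p of 0.0524. This p was 0.019 with DESeq2, 0.0488 without WT VEH_HC replicate 1, 0.215 with the GC and length correction (log2 0.25) and 0.996 with the choroid plexus level as a covariate (log2 0.05).

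Gabrb1 was at 19.7 and 20.3 CPM in WT VEH and at 18.3, 16.0 and 17.5 CPM in WT VEH_HC, again without overlap. Its log2 difference was 0.22 (interval 0.04 to 0.39, adjusted p = 0.116). Gabrd was at 27.2 and 30.5 CPM in WT VEH and at 30.2, 38.5 and 33.8 CPM in WT VEH_HC, with a log2 difference of -0.25 (interval -0.48 to -0.02, adjusted p = 0.15). For Gabrd the higher trained library passed the lowest home cage library. Gabrd was called in this comparison only without a filter on low counts (edgeR adjusted p = 0.0433).

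The other 4 genes overlapped between trained and home cage mice. Gabra2 was at 28.1 and 26.6 CPM against 25.4, 28.8 and 25.6 (log2 0.04, interval -0.16 to 0.24), and Gabra4 at 65.1 and 63.8 CPM against 53.3, 57.6 and 66.98 (log2 0.12, interval -0.09 to 0.33). Gabra5 was at 143.9 and 153.7 CPM against 137.6, 114.5 and 147.2 (log2 0.16, interval -0.06 to 0.38), and Gabrb2 at 127.5 and 121.6 CPM against 109.1, 107.9 and 124.5 (log2 0.13, interval -0.04 to 0.29). Leaving out 1 library gave 0.05 to 0.22 for Gabra4, 0.06 to 0.24 for Gabra5, 0.09 to 0.20 for Gabrb2 and -0.33 to -0.15 for Gabrd. Corrected for GC and length, the log2 differences were -0.13 for Gabra2, -0.03 for Gabra4, 0.11 for Gabra5, 0.13 for Gabrb1, 0.04 for Gabrb2 and -0.18 for Gabrd. With the choroid plexus covariate they were 0.34 for Gabra2, -0.36 for Gabra4, -0.32 for Gabra5, 0.04 for Gabrb1, -0.30 for Gabrb2 and 0.15 for Gabrd, none of them called, and 0 of all genes were called in that fit. All 12 choroid plexus markers were called higher in WT VEH in this comparison, with a median log2 difference of 3.13. Calls higher also numbered 2 of 8 interneuron markers, 1 of 4 CA2, 1 of 5 microglia and 1 of 4 erythroid markers. Calls lower numbered 1 of 7 dentate granule cell markers and 1 of 5 CA3 markers. The summed choroid plexus level did not overlap between these groups, so the covariate fit cannot well tell its part from that of training. The part of these cells in the values of the GABA-A genes was not tested otherwise.

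**Figure D3:**
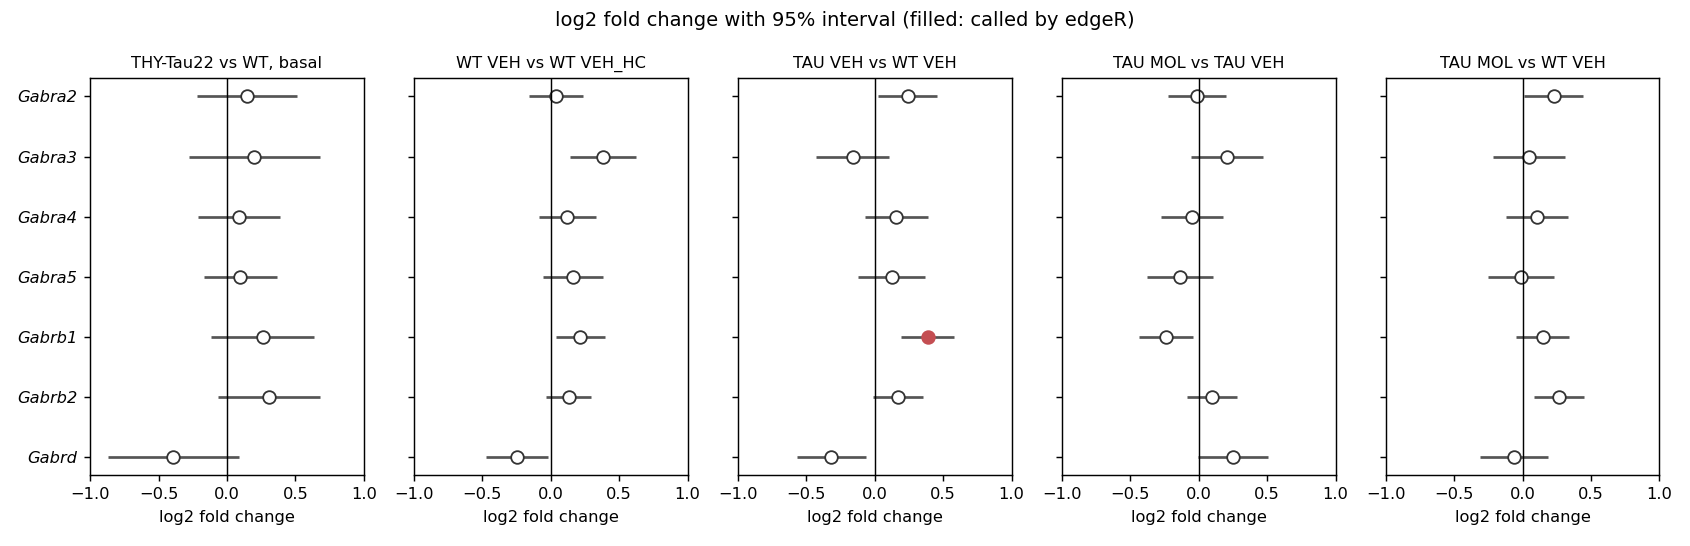
log2 fold change (x axis, first group over second) of the 7 GABA-A subunit genes in the 5 comparisons, with 95% intervals from edgeR. A filled point marks a called gene. Gabrb1 in TAU VEH against WT VEH is the one filled point, at 0.39.

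The third comparison, TAU VEH against WT VEH, asked how trained THY-Tau22 mice differ from trained WT mice. Gabrb1, the gene of the β1 subunit, was higher in TAU VEH, and the other 6 genes did not pass the test. The count of 1 of 7 stands beside 14.4% of all genes called (2423 of 16820, of which 608 were higher and 1815 lower), so it is close to the background. The groups did not overlap for 6 of the 7, all but Gabra3, beside 57.9% of all genes.

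Gabrb1 was at 25.5 and 26.9 CPM in TAU VEH and at 19.7 and 20.3 CPM in WT VEH. Both TAU VEH libraries were higher than every other library of the learning experiment, where the next was TAU MOL replicate 1 with 23.2 CPM. The rise was 1.31-fold (log2 0.39, SE 0.09, interval 0.19 to 0.58, adjusted p = 0.0137). DESeq2 called it as well (log2 0.40, adjusted p = 0.0049) as 1 of the 7, beside 14.8% of all genes. With the GC and length correction the log2 difference was 0.29 and the call was lost (adjusted p = 0.107), and it was also lost with the choroid plexus covariate (log2 0.50, adjusted p = 0.309). The call further needed both libraries of each group: the adjusted p was 0.0636 and 0.0904 without TAU VEH replicate 1 or 2, and 0.0882 and 0.0666 without WT VEH replicate 1 or 2, with log2 differences from 0.35 to 0.42.

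Gabrd went the other way. It was at 23.7 and 22.5 CPM in TAU VEH and at 27.2 and 30.5 CPM in WT VEH, and the 2 TAU VEH libraries were the lowest of all 9. The log2 difference of -0.32 (SE 0.12, interval -0.57 to -0.06) missed the limit with an adjusted p of 0.099. It was called without a filter on low counts (adjusted p = 0.0181), on the 4 libraries of the pair alone (0.0166) and without WT VEH_HC replicate 2 (0.0342), and it was at -0.16 (adjusted p = 0.531) with the GC and length correction.

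Gabra2 was at 35.3 and 29.1 CPM in TAU VEH and at 28.1 and 26.6 CPM in WT VEH, with a log2 difference of 0.24 (interval 0.02 to 0.46, adjusted p = 0.141). It was 0.13 with the GC and length correction, and 0.086 and 0.36 without TAU VEH replicate 1 or 2. Gabrb2, the gene of the β2 subunit of the most common receptor type, was at 146.8 and 132.9 CPM against 127.5 and 121.6 CPM (log2 0.17, interval -0.01 to 0.35, adjusted p = 0.218). Its log2 difference was -0.09 with the GC and length correction, so its direction changed with that correction, and 0.09 without TAU VEH replicate 1. Gabra4, the partner of δ in extrasynaptic receptors, was at 74.0 and 69.7 CPM against 65.1 and 63.8 CPM (log2 0.16, interval -0.07 to 0.39), and at 0.01 after the correction.

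Gabra5 was at 157.8 and 166.5 CPM in TAU VEH and at 143.9 and 153.7 CPM in WT VEH (log2 0.12, interval -0.12 to 0.37). Gabra3 was the one gene with overlapping groups, at 21.5 and 26.7 CPM against 27.0 and 26.5 CPM (log2 -0.16, interval -0.43 to 0.11). After the correction Gabra5 was at 0.05 and Gabra3 at -0.30, the one value of the 7 that became larger in size, and without TAU VEH replicate 1 or 2 Gabra3 was at -0.0062 or -0.32. The median over the 7 genes was 0.16 as counted and 0.01 with the GC and length correction. Over all genes the log2 difference had a Spearman's rho of -0.52 with GC content. With library size alone as the scale, which raised the median of all genes from 0.00 to 0.15, 4 of the 7 were called higher: Gabra2, Gabra4, Gabrb1 and Gabrb2. The groups also differed in cell markers, with 12 of 12 choroid plexus markers and 3 of 5 CA1 markers called lower in TAU VEH and 2 of 5 astrocyte markers called higher. Of 8 interneuron markers 2 were called lower, among them Slc32a1, which also stands in a GABA list given further on. Calls lower also numbered 2 of 4 neocortex markers, 1 of 6 thalamus markers and 1 of 5 microglia markers, and calls higher 1 of 5 CA3 markers and 1 of 6 thalamus markers. With the choroid plexus covariate the log2 differences were 0.04 for Gabra2, 0.07 for Gabra3, 0.49 for Gabra4, 0.46 for Gabra5, 0.46 for Gabrb2 and -0.59 for Gabrd, none of them called. The summed choroid plexus level did not overlap between these groups, so that fit cannot well tell its part from that of the group. The part of these cells in the GABA-A values was not tested otherwise.

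**Figure D4:**
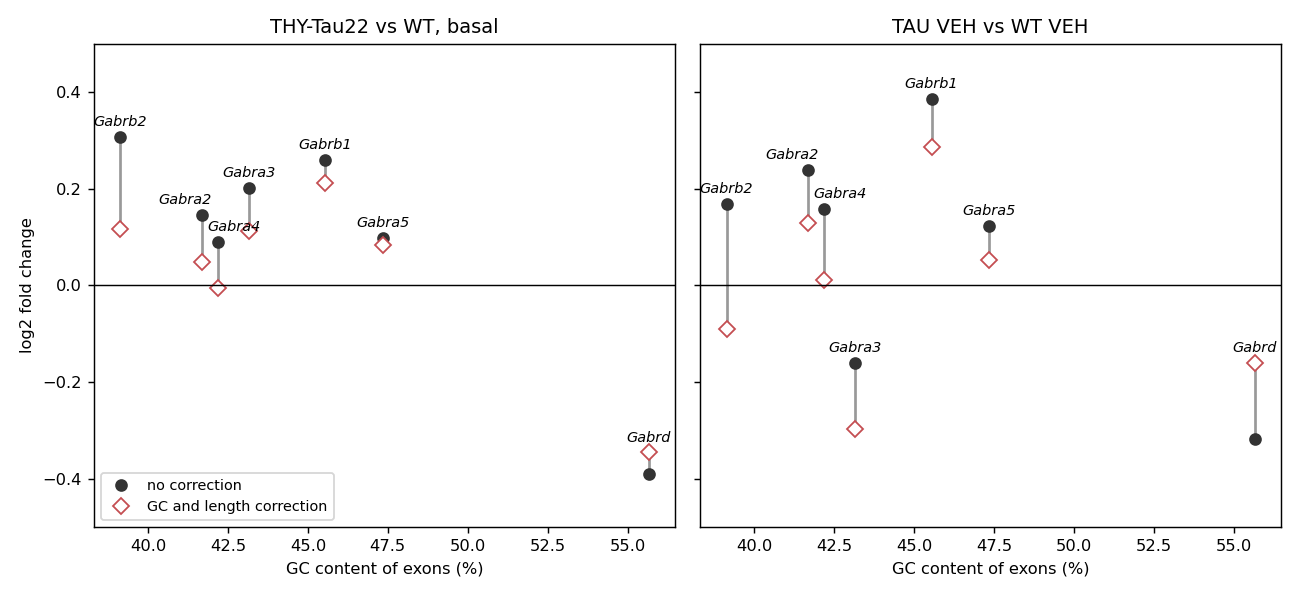
log2 fold change of the 7 GABA-A subunit genes (y axis) against the GC content of their exons (x axis, percent), as counted (filled circles) and with the GC and length correction (open diamonds), for the basal comparison and for TAU VEH against WT VEH. The correction lowered 6 of the 7 values and raised that of Gabrd, the gene with 55.7% GC, in each comparison.

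TAU MOL was compared with TAU VEH to see what the acetyltransferase activator changes in trained THY-Tau22 mice. edgeR called 0 of 16820 genes, or 0.0% of all, and 0 of the 7 GABA-A genes, whereas 6.33% of all genes and 1 of the 7, Gabrb1, had an unadjusted p under 0.05. DESeq2 called 56 genes, 0.333% of all, and 0 of the 7. The groups did not overlap for 3 of the 7, Gabrb1, Gabrb2 and Gabrd, and for 38.9% of all genes.

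Gabrb1 was at 23.2 and 21.0 CPM in TAU MOL against 25.5 and 26.9 CPM in TAU VEH (log2 -0.24, interval -0.43 to -0.05, adjusted p = 0.681). Gabrd was at 25.6 and 29.6 CPM against 23.7 and 22.5 CPM (log2 0.25, interval 0.00 to 0.51, adjusted p = 0.788). In these genes the TAU MOL libraries lay between TAU VEH and, for Gabrb1, WT VEH, while for Gabrd they overlapped WT VEH. Because TAU VEH enters this comparison and the one before it, opposite signs in them are not independent of each other.

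Gabrb2 was at 149.0 and 150.6 CPM in TAU MOL and at 146.8 and 132.9 CPM in TAU VEH (log2 0.10, interval -0.08 to 0.28). Gabra3 was at 29.4 and 25.8 CPM against 21.5 and 26.7 CPM (log2 0.21, interval -0.06 to 0.47), and Gabra5 at 135.5 and 159.4 CPM against 157.8 and 166.5 CPM (log2 -0.14, interval -0.38 to 0.11). Gabra2, at 31.9 and 32.1 CPM against 35.3 and 29.1 CPM, and Gabra4, at 64.7 and 74.2 CPM against 74.0 and 69.7 CPM, had log2 differences of -0.01 (interval -0.23 to 0.20) and -0.05 (interval -0.28 to 0.18). Leaving out 1 library gave 0.05 to 0.36 for Gabra3, -0.26 to -0.023 for Gabra5, -0.31 to -0.17 for Gabrb1, 0.03 to 0.17 for Gabrb2 and 0.15 to 0.36 for Gabrd. The choroid plexus covariate moved the differences to -0.30 for Gabrb1, 0.39 for Gabrd, -0.05 for Gabrb2, 0.09 for Gabra3, -0.30 for Gabra5, 0.09 for Gabra2 and -0.22 for Gabra4, none of them called.

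TAU MOL against WT VEH asked what was left of the difference to trained WT mice under the activator. It called 5.63% of all genes (947 of 16820) and 0 of the 7 GABA-A genes, of which Gabrb2 and Gabra2 had an unadjusted p under 0.05, beside 19.8% of all genes. The groups did not overlap for 3 of the 7, Gabra2, Gabrb1 and Gabrb2, and for 52.5% of all genes.

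Gabrb2 was at 149.0 and 150.6 CPM in TAU MOL, the highest values of the learning experiment, and at 127.5 and 121.6 CPM in WT VEH. The log2 difference of 0.27 (SE 0.08, interval 0.09 to 0.45) had an adjusted p of 0.0873 with edgeR and was called by DESeq2 (0.0228), which called 7.91% of all genes, with the replicate block (0.0293), on the libraries of the pair alone (0.0231), with library size alone (0.0282), without a filter on low counts (0.0269) and without WT VEH_HC replicate 3 (0.0368). The value was 0.06 after the GC and length correction (adjusted p = 0.823), 0.06 with the block added to it (0.729) and 0.41 with the choroid plexus covariate (0.169). Gabra2 was at 0.23 (interval 0.01 to 0.44, adjusted p = 0.224) and Gabrb1 at 0.15 (interval -0.05 to 0.34), and at 0.11 and 0.07 with that correction. The log2 differences of Gabra3, Gabra4, Gabra5 and Gabrd were 0.05, 0.11, -0.01 and -0.06, with intervals that covered 0. Leaving out 1 library gave 0.07 to 0.22 for Gabrb1 and 0.0058 to 0.20 for Gabra4. With the choroid plexus covariate Gabra2 was at 0.13, Gabra3 at 0.16, Gabra4 at 0.27, Gabra5 at 0.15, Gabrb1 at 0.21 and Gabrd at -0.20, none of them called. Of the cell markers, 6 of 12 choroid plexus markers were called lower in TAU MOL (median log2 -1.37). So were 1 of 5 CA1, 1 of 5 CA3, 1 of 4 CA2 and 1 of 5 microglia markers, and 1 of 5 astrocyte markers was called higher. Their part in the GABA-A values was not tested beyond the covariate fit.

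Ratios within a library do not depend on how the libraries are scaled, and the ratio of Gabrd to its partner Gabra4 separated the learning groups. Per length it was 0.815, 0.961 and 0.723 in WT VEH_HC, 0.600 and 0.686 in WT VEH, 0.459 and 0.464 for TAU VEH, and 0.568 and 0.572 for TAU MOL. No group overlapped another in this ratio, with home cage WT highest and TAU VEH lowest. In the basal experiment the ratio was 0.690, 0.913 and 0.728 in WT and 0.765 and 0.398 in THY-Tau22, so the groups overlapped there. The genes differ in GC content (55.7% and 42.2%), and the basal library with a ratio of 0.398 was the one with the GC trend of -0.60. The pair was picked for the known partnership of the subunits with earlier results known, and the ratio is given with no test. It was 1 of 3 ratios computed, and the others did not set all groups apart. Gabrd to Gabrb1 was 1.77, 2.59 and 2.08 in WT VEH_HC, 1.48 and 1.61 in WT VEH, 0.996 and 0.901 for TAU VEH, and 1.18 and 1.51 for TAU MOL, which overlapped WT VEH. Gabrb1 to Gabrb2 was 0.558 and 0.649 in TAU VEH, above the 0.449 to 0.539 of the other 7 libraries, whose groups overlapped. How many other gene pairs would separate the groups was not computed.

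**Figure D5:**
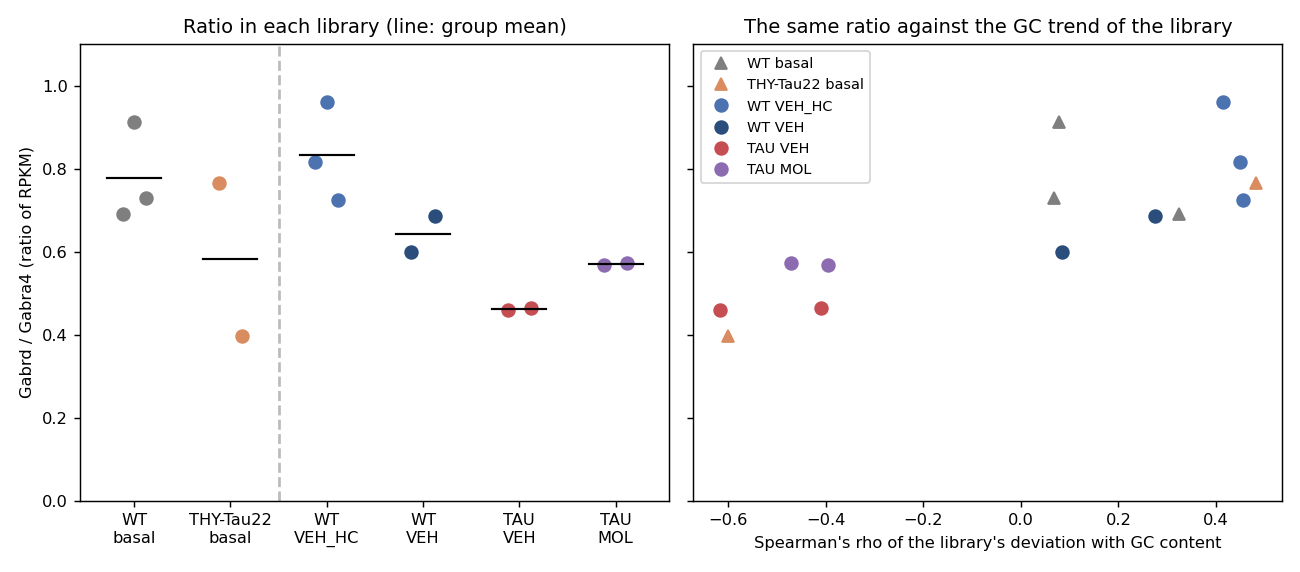
Ratio of Gabrd to Gabra4 (RPKM over RPKM) in each library by group (left, with group means) and against Spearman's rho of the library's deviation from the mean with GC content (right). The ratio runs from 0.398 to 0.961 and lies lower in every library with a negative rho than in any with a positive one. The TAU learning libraries have a rho from -0.62 to -0.40.

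Across the 9 learning libraries Gabrd and Gabrb1 ran opposite to each other, with a Pearson's r of log2 CPM of -0.95. Only 0.0725% of the 12422 genes with a mean of at least 100 counts had a lower r with Gabrd. Gabrd was negatively correlated with all 6 other genes (r from -0.95 to -0.52), and those 6 were positively correlated among themselves (r from 0.16 to 0.85). The closest pair was Gabra4 and Gabrb2 with 0.85. These values describe 9 libraries that fall into 4 groups and share the GC trend.

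The genes whose levels ran most like each subunit gene over the same 9 libraries were D14Abb1e and Elmod2 for Gabra2 (r = 0.99 for both), Hsd17b11 and Ntm for Gabra3 (0.96 and 0.95), and Hdac2 and Vstm2a for Gabra4 (0.97 for both). For Gabra5 they were Morf4l2 and Arl16 (0.97 for both), for Gabrb1 Stk4 and Tppp (0.98 for both), for Gabrb2 Lin7a and B2m (0.99 and 0.98), and for Gabrd Tbc1d20 and Prosapip1 (0.98 and 0.97). Hdac2 encodes a histone deacetylase and Ntm a cell adhesion protein of neurons. Other subunit genes of the 7 were not among these. Each was picked as the highest r among 12422 genes, over libraries that fall into groups and share the GC trend, so a high r does not single out a tie between the genes.

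Of 27 genes that act around the receptor, 9 were called in TAU VEH against WT VEH, all lower, beside the 14.4% of all genes. Of 15 genes for anchoring and trafficking, 5 were called lower and 0 higher than in WT VEH. They were Nlgn2, a cell adhesion protein of inhibitory synapses (log2 -0.56, adjusted p = 0.00101), Lhfpl4, which links receptors to it (-0.37, 0.00378), Shisa7, an auxiliary subunit (-0.40, 0.00348), Gabarap, which binds the receptor on its way to the membrane (-0.32, 0.0183), and Trak1, an adaptor for transport along microtubules (-0.39, 0.00201). Of 8 genes for GABA synthesis, vesicle loading, uptake and breakdown, 2 were called lower, the vesicular transporter Slc32a1 (-0.42, 0.0116) and the transporter of astrocytes Slc6a11 (-0.45, 0.00198). The neuronal chloride exporter Slc12a5 (-0.42, 0.00248) and the GABA-B receptor gene Gabbr1 (-0.27, 0.0113) were lower as well, each 1 of 2 in its list. The medians of these lists were -0.08, 0.01, -0.21 and -0.15, beside 0.00 over all genes. The exons of these 9 genes had a GC content of 51.0% to 61.9%, above the median of 50.0%. After correction for GC and length, Slc6a11 (log2 -0.32, adjusted p = 0.0301) and Gabarap (-0.31, 0.0444) were still past the limit, whereas the other 7 were not. Their log2 differences were then -0.14 for Nlgn2, Lhfpl4 and Shisa7, -0.11 for Trak1, -0.03 for Slc32a1, -0.13 for Slc12a5 and -0.19 for Gabbr1. With the choroid plexus covariate 0 of all genes were called in this comparison.

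In TAU MOL against WT VEH 3 of the 27 genes were called, beside 5.63% of all genes. They were Slc6a11 (log2 -0.44, adjusted p = 0.00996), Nlgn2 (-0.37, 0.0139) and Trak1 (-0.31, 0.0172), all lower. DESeq2 called 7 of the 27, beside 7.91% of all genes, these 3 with Lhfpl4, Shisa7 and Slc12a5, which were lower too, and Gad2, which makes GABA and was higher (edgeR log2 0.36, edgeR adjusted p = 0.0952, DESeq2 adjusted p = 0.0119). After the GC and length correction 0 of the 3 edgeR calls were past the limit, with log2 differences of -0.36 for Slc6a11 (adjusted p = 0.0673), -0.09 for Nlgn2 (0.677) and -0.13 for Trak1 (0.391). With the choroid plexus covariate 2 of all genes were called in this comparison. In WT VEH against WT VEH_HC 2 of the 27 were called, beside 8.4% of all genes, both lower in the trained mice. They were Hap1, which recycles receptors to the membrane (log2 -0.67, adjusted p = 0.00277), and Gabbr2, the other GABA-B receptor gene (-0.32, 0.0194). DESeq2 called 4 of the 27, beside 11.0% of all genes, these and Shisa7, which was lower (edgeR log2 -0.20, DESeq2 adjusted p = 0.0445), and Plcl1, which was higher (edgeR log2 0.31, edgeR adjusted p = 0.0574, DESeq2 adjusted p = 0.0359). Hap1 was still past the limit with the correction (log2 -0.58, adjusted p = 0.00491) and Gabbr2 was not (-0.22, 0.075), and with the choroid plexus covariate neither was. In the basal comparison and in TAU MOL against TAU VEH, edgeR called 0 of the 27 genes in these lists, and so did DESeq2. At an unadjusted p under 0.05 they numbered 0 in the basal comparison, beside 4.92% of all genes, and 5 in TAU MOL against TAU VEH, beside 6.33%.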

How the data were processed

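RNA was extracted from the dorsal hippocampus of 14 mice, and the authors made poly-A libraries with a kit that does not mark the strand. Per the labels and the study's methods, reads were aligned to mm9 with TopHat2 2.0.10 and Bowtie2 2.1.0, and uniquely aligned reads were counted on genes with HTSeq 0.5.4p3. The authors deposited raw counts, whole numbers used here for all tests, and a normalized signal, the deposited counts divided by 1 factor per library, which was not used for tests. Of the 12 libraries of the learning experiment the authors had left out 3 from 1 litter after seeing the data, and these were not analysed here. Another 138 lines of the learning table were empty and were dropped.

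Each table was fitted alone with edgeR 4.0.16 (R 4.3.3): TMM factors, filterByExpr, 1 mean per group, quasi-likelihood F test and Benjamini-Hochberg adjustment over all genes tested. Calls needed an adjusted p below 0.05 together with a log2 fold change of over 0.2 in either direction. The 9 learning libraries shared 1 fit. CPM were scaled by TMM, log2 CPM had a prior count of 1, and RPKM used the length of merged exons from the mm9 annotation. The 7 genes held at least 583 counts in every library, with 2 or 3 libraries per group. Intervals rest on a spread that is pooled over all groups of a table and drawn toward that of other genes. They do not measure the spread of the compared libraries alone. Alternatives were DESeq2 1.42.0, its size factors, library size alone, other filters, no fold limit, the replicate number as a block, a loess correction for GC content and length (span 0.3), a choroid plexus covariate, fits on the compared groups alone, and leaving out each library. The fits were tested on simulated counts first. All 7 genes are named in every comparison, of the pathway lists those called, Thy1 and Mapt as label checks, and for each of the 7 the 2 genes with the highest r. Genes and lists were chosen with earlier results of these data known. Gabra6 was named after its values were seen. Calls among the other subunit genes of the receptor are not reported here. Tables were made with pandas 2.3.3 and numpy 2.4.6, and plots with matplotlib 3.10.9, in Python 3.11.15.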

Additional observations from a re-analysis of the deposited data

How the results depend on the processing

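The 7 genes held at least 583 counts in every library. Groups of 2 or 3 mice leave wide intervals, so small differences may have been missed. Calls among the 7 genes depended on the setting. After training (0 as reported), DESeq2, library size alone and the fit without a filter called 1, 1 and 2, and leaving out a library gave 0 to 1. In TAU VEH against WT VEH (1), library size alone called 4, the fit without a filter 2, the 2 groups alone 2, and the GC and length correction, with or without the replicate block, and the choroid plexus covariate 0. Leaving out a library gave 0 to 2 there. In TAU MOL against WT VEH (0), DESeq2, library size alone, no filter, the replicate block and the 2 groups alone called 1 each, and leaving out a library gave 0 to 1. In the other comparisons the count stayed at 0 under all settings run. The summed choroid plexus level differed between all learning groups without overlap, so in a fit that covariate cannot well be told apart from the group. The cause was not tested.

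Log2 differences changed sign in these fits. With the GC and length correction they were -0.0059 for Gabra4 in the basal comparison, -0.13 for Gabra2 and -0.034 for Gabra4 after training, -0.0904 for Gabrb2 in TAU VEH against WT VEH, and -0.066 for Gabra3, -0.017 for Gabra4 and 0.045 for Gabrd in TAU MOL against WT VEH. With the replicate block and this correction together they were -0.19 for Gabra2 after training, -0.0905 for Gabrb2 in TAU VEH against WT VEH, and -0.067 for Gabra3, -0.019 for Gabra4 and 0.043 for Gabrd in TAU MOL against WT VEH. With the choroid plexus covariate they were -0.36 for Gabra4, -0.32 for Gabra5, -0.30 for Gabrb2 and 0.15 for Gabrd after training, 0.066 for Gabra3 in TAU VEH against WT VEH, 0.0898 for Gabra2 and -0.051 for Gabrb2 in TAU MOL against TAU VEH, and 0.15 for Gabra5 in TAU MOL against WT VEH. With library size alone they were 0.11 for Gabra5 and 0.056 for Gabrd in TAU MOL against WT VEH. Leaving out each library gave, where a sign changed, -0.16 to 0.43 for Gabra2, -0.091 to 0.47 for Gabra3, -0.085 to 0.27 for Gabra4 and -0.034 to 0.24 for Gabra5 in the basal comparison, and -0.00050 to 0.10 for Gabra2 after training. The ranges were -0.14 to 0.14 for Gabra2 and -0.15 to 0.046 for Gabra4 in TAU MOL against TAU VEH, and -0.051 to 0.14 for Gabra3, -0.13 to 0.099 for Gabra5 and -0.17 to 0.037 for Gabrd in TAU MOL against WT VEH. None of these values was called.

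Over all genes the basal count of 4 became 40 with DESeq2, 125 without a filter, 37 with the replicate block, 9 with the GC and length correction and 1 with both, and 1 to 15 without 1 library. The count of 1413 after training became 2686 without a filter, 3000 with the replicate block, 783 with the correction, 310 on the 2 groups and 0 with the choroid plexus covariate, and 73 to 2798 without 1 library. The 2423 in TAU VEH against WT VEH became 446 with the correction, 729 with the block added to it and 0 with the covariate, and 915 to 2944 without 1 library. The 0 in TAU MOL against TAU VEH became 56 with DESeq2, 233 without a filter, 1 with block and correction and 60 on the 2 groups, and 0 to 15 without 1 library. The 947 in TAU MOL against WT VEH became 1590 without a filter, 151 with block and correction, 29 with the correction, 1490 on the 2 groups and 2 with the covariate, and 2 to 1379 without 1 library. Per length of the longest transcript, 5 of 7 places in the order of levels were kept in the learning experiment.

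The labels do not say that a replicate number marks a shared litter or day, so the numbers were not taken to pair the samples. Deviations of same-numbered libraries correlated at 0.0061 and -0.16 in the basal comparison and at -0.032 and 0.082 after training. In the comparisons of 2 libraries with 2, which give 1 value each, they correlated at 0.23 in TAU VEH against WT VEH, 0.12 in TAU MOL against WT VEH and -0.024 in TAU MOL against TAU VEH, which does not settle whether the numbers pair the samples. Beyond the counts above, the replicate block turned 1 of the 35 results of the 7 genes, Gabrb2 in TAU MOL against WT VEH (log2 0.27, adjusted p = 0.0293), into a call.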
